A study of Homo sapiens with 14 samples.

Results

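The regions described here are stretches of chromosomes 1 to 22, far from any protein-coding gene, where ChIP-seq for GATA3 (sequencing of the chromatin that an antibody against it pulls down) gave a peak in 2 or more libraries. Merging the 433307 peaks of 12 deposited lists at 1 bp of overlap gave 78999 regions. Of these, 58619 lay on chromosomes 1 to 22 and were called, that is, overlapped by a peak, in at least 2 libraries. A region was taken as a gene desert region when it lay outside every protein-coding gene span of hg38 and its centre was over 200 kb from the nearest gene end. This left 4701 desert regions, 8.02% of the 58619. A further 1570 regions met the distance rule but were called in 1 library only and were left out. The choice used position and the number of libraries, not which libraries they were.

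All cells were MDA-MB-231, an established line of triple-negative breast cancer, harvested on day 3 without treatment. The groups were GATA3 with the point mutation A442M, an alanine changed to methionine, and a FLAG tag (A442M-FLAG), GATA3 with G444E, a glycine changed to glutamate, and the tag (G444E-FLAG), tagged wildtype GATA3 (WT-FLAG), and the same 3 forms untagged (A442M, G444E and WT), with 2 libraries each. The series' design text places the tag on the C-terminus and says that it stabilises GATA3 in mutant and wildtype alike, so comparing both tag states sets each form beside a version whose protein level was meant to be evened out. An antibody against GATA3 itself was used throughout. Empty-vector cells (2 samples) were not part of the analysis, so no region was compared with a library without added GATA3. The sources used here do not say how GATA3 was introduced or whether each group was 1 clone.

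GATA3, a transcription factor with zinc fingers that shapes luminal breast cells and T cells, binds the sequence GATA followed by A or G. It is known as a pioneer factor, able to bind its sites in closed chromatin, and much of its binding lies in enhancers rather than in promoters. Gene deserts are long intervals without protein-coding genes, and many of them flank developmental regulators and hold enhancers that act on those genes over large distances. The nearest gene is given below as a position only, and does not make that gene a target.

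Some desert regions lay on the start of a long non-coding RNA (lncRNA) gene, and these are the desert regions whose sequence can be shown. Promoter windows of 300 bases, from 250 before to 50 after a gene's start, came from RefSeq (GRCh38.p14, which shares its chromosome coordinates with hg38). Of 35116 windows in the table, 44 were overlapped by a desert region, 1 region each. The following 4, all of lncRNA genes, had the highest median score percentile among the 6 windows under regions called in all 12 libraries. Letters run 5′ to 3′ on the gene's strand, and capitals mark the GATA hexamers searched on both strands: AGATAA, with its variant AGATAG, then TGATAA, with its variant TGATAG.
LOC105369846: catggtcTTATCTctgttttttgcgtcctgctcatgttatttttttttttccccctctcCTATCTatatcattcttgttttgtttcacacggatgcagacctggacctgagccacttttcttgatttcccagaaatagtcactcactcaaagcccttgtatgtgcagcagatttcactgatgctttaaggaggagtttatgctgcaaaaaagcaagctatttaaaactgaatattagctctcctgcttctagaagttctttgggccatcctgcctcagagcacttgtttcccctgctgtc
LOC105373915: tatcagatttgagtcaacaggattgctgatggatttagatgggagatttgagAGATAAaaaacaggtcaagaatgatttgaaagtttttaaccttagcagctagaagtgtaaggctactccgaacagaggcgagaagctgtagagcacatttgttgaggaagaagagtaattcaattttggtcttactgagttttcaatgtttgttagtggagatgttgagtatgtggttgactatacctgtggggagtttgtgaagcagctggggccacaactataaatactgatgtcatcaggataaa
LINC02469: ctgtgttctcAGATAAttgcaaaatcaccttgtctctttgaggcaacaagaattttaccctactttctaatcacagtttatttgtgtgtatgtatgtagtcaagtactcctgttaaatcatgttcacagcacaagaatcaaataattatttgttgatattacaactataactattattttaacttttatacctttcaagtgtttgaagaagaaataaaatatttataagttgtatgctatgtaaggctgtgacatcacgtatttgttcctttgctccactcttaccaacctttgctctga
LOC105378072: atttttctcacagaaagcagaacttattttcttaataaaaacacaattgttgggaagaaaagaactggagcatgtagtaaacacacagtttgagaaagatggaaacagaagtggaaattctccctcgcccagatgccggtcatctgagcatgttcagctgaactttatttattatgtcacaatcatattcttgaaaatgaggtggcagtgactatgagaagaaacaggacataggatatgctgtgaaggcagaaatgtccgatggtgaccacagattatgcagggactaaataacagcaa

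The window of LOC105369846 lies on the minus strand of chromosome 12 from 75781416 to 75781715, and 263 of its bases, with both hexamers, were under the region from 75781453 to 75782142, 244 kb from PHLDA1. That of LOC105373915 lies on the minus strand of chromosome 2 from 226466915 to 226467214, wholly under a region 264 kb from IRS1, the docking protein of the insulin receptor, with 1 hexamer. The window of LINC02469, on the plus strand of chromosome 4 from 79663457 to 79663756, had only 20 bases under its region, and its 1 hexamer was among them. The fourth window, of LOC105378072 on the plus strand of chromosome 6 from 155880894 to 155881193, had 198 bases under its region and none of these hexamers. Of the 44 windows under desert regions, 28 (63.6%) held at least 1 of the hexamers, against 25.0% of all windows in the table. The table's windows differ in base composition, which was not matched, and a match of letters is not a bound site. The 44 windows were all of lncRNA genes and under a GATA3 peak, and windows under peaks outside deserts were not compared. Hexamers were counted over whole windows, also where only part of a window lay under its region.

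The number of desert regions called per library was highest in A442M and lowest in G444E in each tag state, and moved with list length as well. Their share of a library's calls went with the tag in WT and A442M. A442M-FLAG libraries called 3098 and 2822 desert regions. G444E-FLAG libraries called 2495 and 2083, and WT-FLAG libraries 2745 and 2565. Untagged A442M had the highest numbers, 3287 and 3146. Untagged G444E had 2151 and 1966, and untagged WT 2534 and 2384. In each tag state both A442M libraries were above both WT libraries and both G444E libraries below them. Calls of other autosomal regions give the background of these numbers. Their ratio to WT was 1.44 in untagged A442M and 1.16 in untagged G444E. To WT-FLAG it was 1.12 in A442M-FLAG and 0.883 in G444E-FLAG. The desert share was defined as the percentage of a library's called autosomal regions that were desert regions. It is not free of list length: in each group the library with the longer list had the lower share. It was 7.20 ± 0.18% in A442M-FLAG, 7.09 ± 0.37% in G444E-FLAG and 7.22 ± 0.31% in WT-FLAG. Among the untagged groups it was 9.37 ± 0.29% in A442M, 7.57 ± 0.25% in G444E and 10.2 ± 0.43% in WT (SD, n = 2 each). The 4 libraries of untagged A442M and untagged WT lay between 9.16% and 10.5%, and the other 8 between 6.82% and 7.75%, with no overlap.

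**Figure D1:**
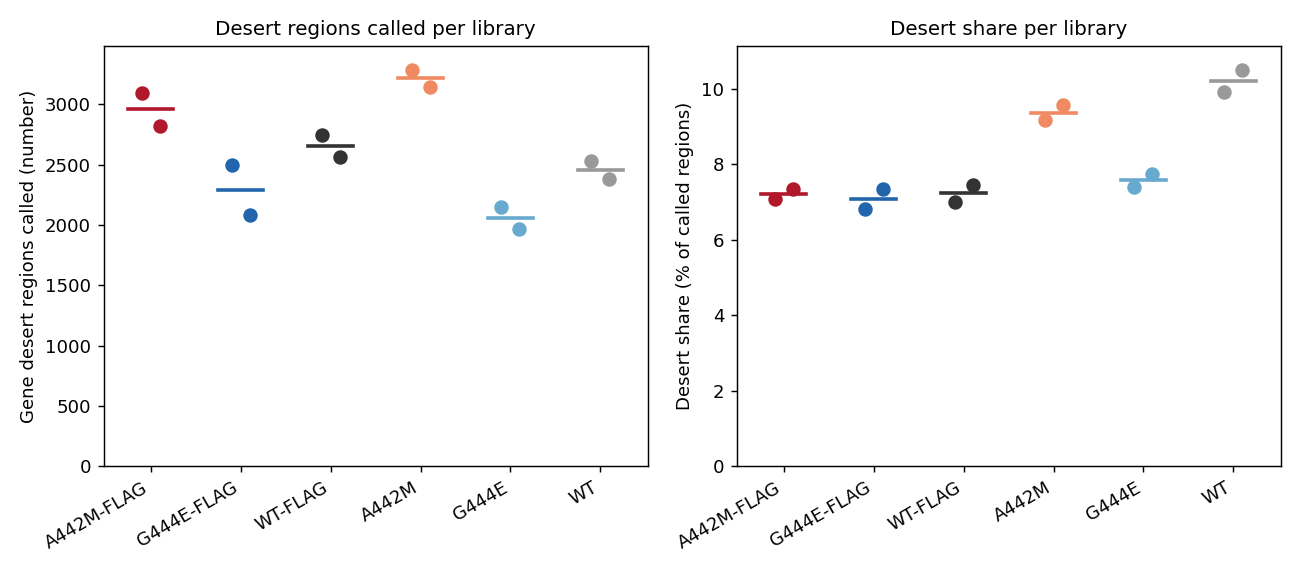
Desert regions called per library (left, number) and desert share (right, percent of the library's called autosomal regions), for 6 groups of 2 libraries; points are libraries and bars group means. The 4 points of untagged A442M and untagged WT on the right lie at 9.16% to 10.5%, above the other 8 at 6.82% to 7.75%.

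Tagged libraries gave a smaller part of their calls to deserts. The desert share was 7.17% in FLAG libraries and 9.05% in untagged ones (means of 6 each), a difference of -1.87 percentage points that was lower in 6 of 6 same-number pairs. The exact permutation test, two-sided, gave p = 0.00926, the smallest that its 216 arrangements allow, and 0.0926 after Benjamini-Hochberg adjustment over the 10 tests of share and number, so it did not pass the adjusted threshold. With labels exchanged only within replicate numbers (replicate block), the p was 0.0312, again the smallest possible. In every same-number pair the FLAG list was also the longer one. With all lists shortened to the length of the shortest, the difference kept its sign and an unadjusted p under 0.05 (exact permutation test). By genotype the differences were -2.16 points in A442M, -0.48 in G444E and -2.98 in WT. Without untagged WT and untagged A442M, only the G444E libraries compare both tag states, and the difference was -0.44 points, a value for which 2 against 2 libraries allow no test that could reach 0.05.

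Those same 4 libraries stood apart in another measure that uses no desert region. Their lists held 57 to 110 peaks on contigs that are not placed on a chromosome, against 14 to 24 in the other 8 lists. The part of this in the desert share was not tested. Leaving out the 298 desert regions over 1000 kb from a gene end, a choice made after the data were seen, gave a tag difference of -1.64 points (exact permutation test, p = 0.00926).

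Between genotypes, no difference in number or share passed the adjusted threshold. A442M called 1.21-fold as many desert regions as WT (0.27 in log2, higher in 4 of 4 same-number pairs) and 1.42-fold as many as G444E (0.51 in log2, 4 of 4 pairs). G444E called 0.848-fold as many as WT (-0.24 in log2, lower in 4 of 4 pairs). Other autosomal regions give the background of these ratios. Untagged A442M called 1.31-fold as many desert regions as WT and 1.44-fold as many other regions, and A442M-FLAG 1.11-fold and 1.12-fold as many as WT-FLAG. Untagged G444E called 0.837-fold as many desert regions as WT but 1.16-fold as many other regions, and G444E-FLAG 0.862-fold and 0.883-fold as many as WT-FLAG. Each of the 3 contrasts had an exact permutation p of 0.0556, the smallest that 36 arrangements allow, and 0.139 after adjustment. Both mutants together lay 0.02 in log2 from WT in number (exact permutation test, p = 0.92). This mean joins a higher number in A442M with a lower one in G444E, so it does not show that the mutants were like WT. The spread behind this p also holds the gap between the mutants. Shortened to the length of the shortest list, A442M lists had -0.02 in log2 against WT lists (exact permutation test, p = 0.778), while those of FLAG libraries had -0.26 against untagged ones (p = 0.0185). Desert shares differed by -0.43 points between A442M and WT and by -1.38 points between G444E and WT, lower in 3 and 4 of 4 pairs (exact permutation tests, p = 0.222 and p = 0.111). Tagged groups alone differed little: -0.02 points between A442M-FLAG and WT-FLAG and -0.14 between G444E-FLAG and WT-FLAG, both with overlapping libraries. With 2 libraries each, no exact test of a single pair of groups can reach 0.05, so pairs were not tested alone.

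The difference was graded with distance from genes rather than starting at the desert limit. WT-FLAG libraries called 63.9% of regions inside gene spans, 61.6% of those 50 to 200 kb outside and 48.8% of those over 500 kb away. Untagged WT libraries went the other way, with 37.9%, 47.0% and 55.3% of the same classes. A442M-FLAG called 72.2% inside gene spans and 56.5% over 500 kb away, against 55.9% and 68.7% in untagged A442M. G444E-FLAG called 56.3% and 40.7%, and untagged G444E 46.7% and 37.1%. The ratio of calls in WT-FLAG over WT was thus 1.69 inside genes, 1.17 at 200 to 500 kb and 0.881 beyond 500 kb. That of A442M-FLAG over A442M was 1.29, 0.962 and 0.822, and that of G444E-FLAG over G444E 1.20, 1.12 and 1.10. In G444E over WT, both untagged, it was 1.23 inside genes and 0.671 beyond 500 kb.

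**Figure D2:**
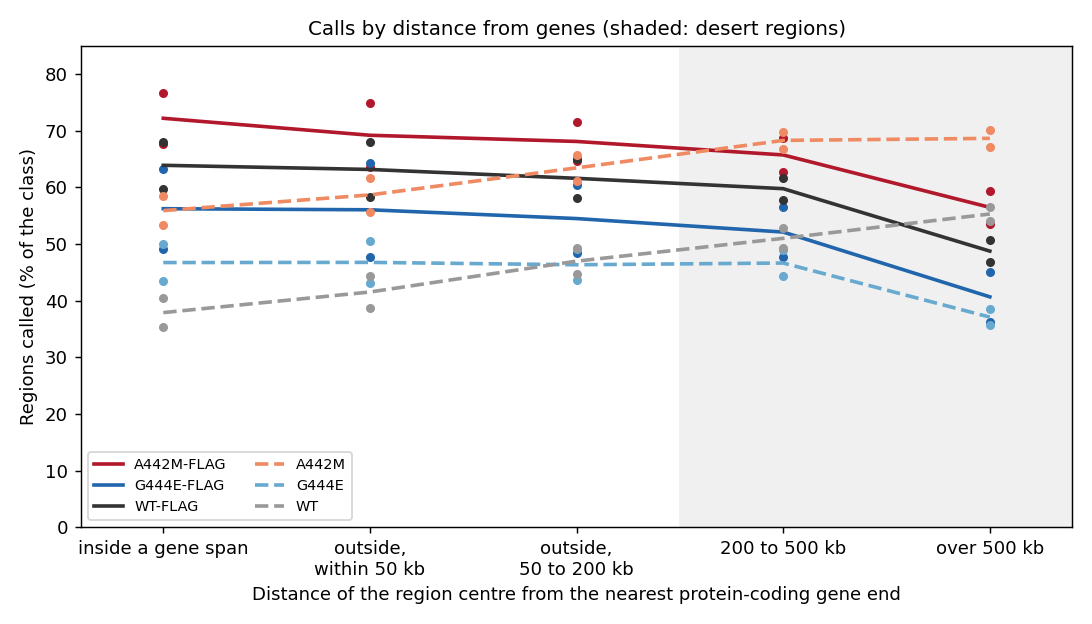
Percentage of regions called, by distance of the region's centre from the nearest protein-coding gene end; lines are group means, points single libraries, solid lines FLAG groups, dashed lines untagged groups, and the shaded classes are desert regions. Untagged WT goes up from 37.9% inside genes to 55.3% beyond 500 kb, while the FLAG groups go down. Untagged G444E also goes down, from 46.7% to 37.1%.

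The same grading appeared with the length of the gene-free interval. In intervals under 1 Mb, WT-FLAG libraries called 61.5% and WT libraries 49.8% of 1733 desert regions. In intervals of 2 to 4 Mb they called 47.3% and 55.8% of 787. In the 18 intervals over 4 Mb they called 33.0% and 71.2% of 182, and A442M-FLAG and A442M 38.2% and 73.1%. G444E-FLAG and G444E stayed close to each other there, at 26.9% and 24.5%. Many of these 18 intervals span a centromere, so this class does not show the length of an interval alone. The one between LINC02798 and H3-7, across a centromere, held 24 desert regions, of which WT libraries called 21.5 on average and WT-FLAG libraries 0. The gap was smaller in the intervals over 4 Mb with the most regions. WT and WT-FLAG averaged 23 and 18 of 33 in PCDH7 to ARAP2, and 19.5 and 14.5 of 32 in AGA to TENM3.

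Counted region by region, desert regions were less often gained with the tag and more often lost than regions at large. Called in both WT-FLAG libraries and neither WT library were 549 desert regions (11.7%), beside 16.2% of all 58619 regions. The opposite pattern, both WT libraries and neither WT-FLAG library, held for 471 (10.02%), beside 4.03%. For A442M-FLAG and not A442M the count was 409 (8.70%, beside 14.2%), and for A442M and not A442M-FLAG it was 481 (10.2%, beside 5.19%). G444E-FLAG and not G444E gave 90 (1.91%, beside 2.88%), and the reverse 38 (0.808%, beside 0.565%). Some of these regions met the rule of 2 libraries only through the group that called them. Of the 409, 170 were called in the 2 A442M-FLAG libraries alone. Of the 481, 47 were called in the 2 untagged A442M libraries alone, and of the 471, 79 in the 2 untagged WT libraries alone. These are descriptions without a test, and regions of 1 interval are not independent of each other.

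Between untagged genotypes, regions that WT called and G444E did not were more frequent in deserts than at large. Untagged A442M and not WT gave 456 (9.70%, beside 9.16%), a share near the background, and WT and not A442M 89 (1.89%, beside 0.877%). With all lists shortened to the length of the shortest, these became 6.40% and 6.16% of desert regions. The share over all regions at that length is not given here. Of the 89 regions, 79 were called in the 2 untagged WT libraries alone, and so met the rule of 2 libraries only through them. Likewise, 47 of the 456 were called in the 2 untagged A442M libraries alone. With 3 or more libraries asked for, WT and not A442M held a smaller share of desert regions, given at the end. Untagged G444E and not WT gave 222 (4.72%, beside 6.71%), and WT and not G444E 507 (10.8%, beside 4.66%). These 507 include the 79 regions of the 2 untagged WT libraries alone. Among tagged groups 3 of the 4 shares were below the background and the other was level with it. A442M-FLAG and not WT-FLAG gave 302 (6.42%, beside 7.83%) and the reverse 97 (2.06%, beside 2.05%). Of the 302, 170 were called in the 2 A442M-FLAG libraries alone, and so met the rule of 2 libraries only through them. G444E-FLAG and not WT-FLAG gave 18 (0.383%, beside 0.612%) and the reverse 114 (2.43%, beside 2.84%).

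**Figure D3:**
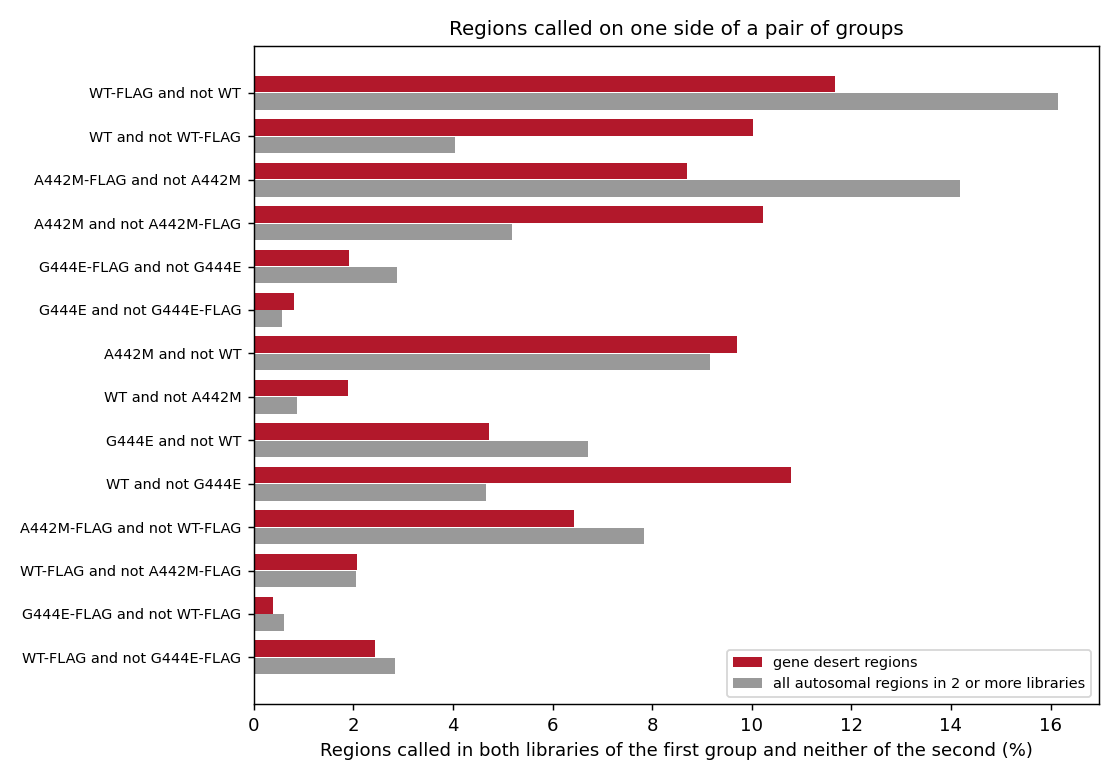
Percentage of regions called in both libraries of the first group and in neither of the second, for desert regions (red) and for all autosomal regions in 2 or more libraries (grey), in 7 pairs of groups, both ways. WT and not WT-FLAG holds 10.02% of desert regions and 4.03% of all regions.

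No single desert region passed a test of its own, and for the tag none could. The calls of 6 FLAG libraries were set against those of 6 untagged ones by Fisher's exact test. Adjusted over the 11429 regions whose number of calls could reach 0.05, it called 0 desert regions in either direction, as it called 0% of all regions tested. The smallest adjusted p was 0.103 (Fisher's exact test). That was the value even of the 12 desert regions called in all 6 FLAG libraries and in no untagged one. Calls cannot be split further than that, so the count of 0 does not show that no desert region differs with the tag. At an unadjusted p under 0.05, 48 of the 863 desert regions tested (5.56%) were called more often with the tag, against 11.4% of all regions tested, and 35 (4.06%) less often, against 1.57%. With 8 mutant against 4 WT libraries the adjusted count was also 0 desert regions both ways, beside 0% of all 25820. Unadjusted, 2 of 2084 desert regions were called more often in the mutants (0.096%, against 0.201%) and 2 less often (0.096%, against 0.093%). No other tool was run on single regions.

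Desert regions were shared across libraries about as often as other regions. All 12 libraries called 846 of the desert regions (18.0%, against 18.2% of other autosomal regions), and 853 (18.1%, against 17.9%) were called in exactly 2. At 200 to 500 kb, 19.2% were called in all 12 and 16.9% in exactly 2. Over 500 kb these were 15.1% and 21.0%. Both libraries agreed on a call in exactly 1 group for 22.2% of desert regions, against 22.3% of the others, and in no group for 20.7%, against 22.8%. Replicate overlap, the regions called in both libraries over those called in either, lay between 58.0% (G444E-FLAG) and 70.6% (A442M-FLAG) in desert regions and between 56.5% and 70.5% in the others. Exactly the 4 libraries of untagged A442M and untagged WT called 148 desert regions (3.15%), against 0.835% of other regions. Exactly the 2 untagged A442M libraries called 47 (0.9998%, against 0.345%), and exactly the 2 untagged WT libraries 79 (1.68%, against 0.534%). The 148 lay a median of 566 kb from a gene end, against 364 kb for all desert regions. Exactly the 6 FLAG libraries called 12 (0.255%, against 0.397%), and exactly the 2 A442M-FLAG libraries 170 (3.62%, against 5.40% of other regions).

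Peak scores in deserts were about as high as elsewhere. The authors' score, whose scale the lists do not name, was turned into a percentile within each list. The median percentile of a library's desert regions lay between 51.7 and 54.9, and that of its other regions between 51.1 and 55.4. The mean difference was 0.62 ± 0.82 percentile points (SD, n = 12), positive in 9 of 12 libraries (exact sign-flip permutation test, two-sided, p = 0.0264). This test takes the 12 libraries as independent, though replicates of a group may not be, and its p was not adjusted. It was negative in both A442M-FLAG libraries and in WT replicate 2. With a score of at least 10 it became -1.24 points (exact permutation test, p = 0.000977), and at a desert limit of 500 kb -1.69 points (p = 0.000488), so its sign depends on these settings.

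**Figure D4:**
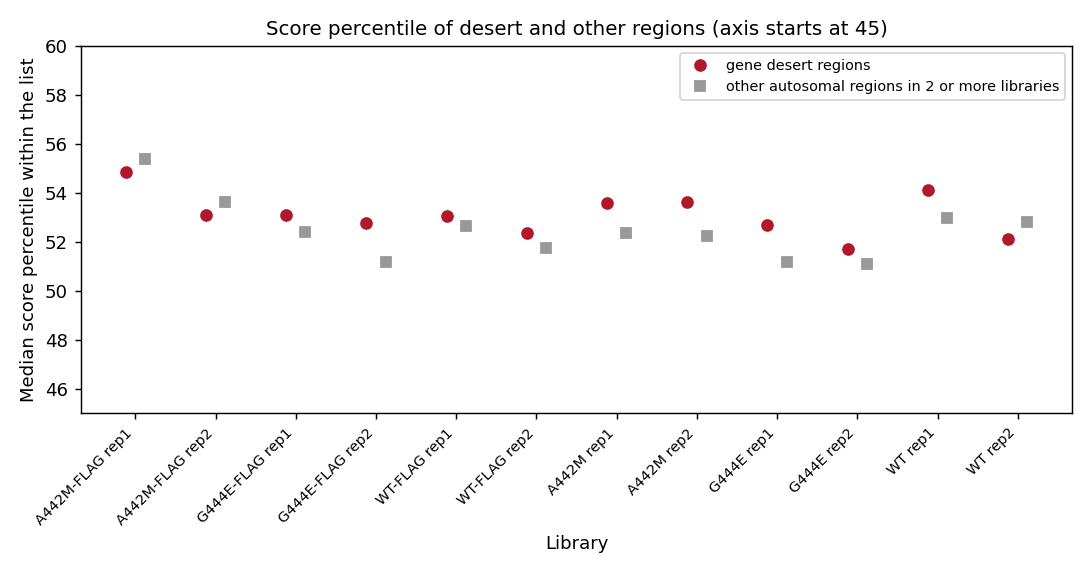
Median percentile of the authors' score within each list, for desert regions (red circles) and other autosomal regions in 2 or more libraries (grey squares), by library; the axis starts at 45. Desert medians lie between 51.7 and 54.9, within 1.6 percentile points of the others in each library.

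The strongest of the 846 desert regions of all 12 libraries were picked by their median percentile over these libraries. High values in most libraries follow from that choice. The top one by median percentile is on chromosome 7 from 46432189 to 46433570, 512 kb from IGFBP3, which binds insulin-like growth factors. Its percentiles were 99.2 and 99.2 in A442M-FLAG, 99.5 and 99.7 in G444E-FLAG, 99.2 and 99.7 in WT-FLAG, 99.9 and 99.9 in A442M, 99.6 and 99.8 in G444E, and 99.9 and 99.9 in WT. All libraries thus ranked it in the top 1% of their peaks. The next, on chromosome 5 from 61826663 to 61828648, lay 281 kb from ZSWIM6 and had percentiles from 97.7 (A442M-FLAG replicate 2) to 99.96 (A442M replicate 1). A region on chromosome 14 from 53640488 to 53641595, inside the lncRNA gene LOC105370504, lay 309 kb from BMP4, a secreted bone morphogenetic protein, with a lowest percentile of 98.8.

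The other 7 of the 10 highest had medians between 99.1 and 99.6. They lay near BTG1, an anti-proliferative gene, JAG1, a Notch ligand, ACTBL2, an actin-like gene, KIF20B, a kinesin, CDYL, a chromodomain co-repressor, TFAP2A and METTL15. The JAG1 region, on chromosome 20 from 10969500 to 10970802, is 296 kb from the gene, with a lowest percentile of 99.3. The region nearest TFAP2A, the AP-2 alpha factor of ectoderm and breast epithelium, is 901 kb away, on chromosome 6 from 9494387 to 9497744, and spans 3358 bp. The CDYL region was the one of the 10 whose lowest value, 97.8, was in an untagged WT library.

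Regions called on one side of a pair ranged from strong peaks missed in 1 group to peaks of 1 group alone. The highest-scoring region of both WT-FLAG libraries without a WT call lies on chromosome 17 from 72400251 to 72401704, between SOX9, a transcription factor of cartilage and of epithelial progenitors, and the zinc transporter gene SLC39A11. Its percentiles were 99.1 and 99.6 in A442M-FLAG, 96.9 and 95.4 in G444E-FLAG, 98.3 and 98.0 in WT-FLAG, 94.0 and 93.7 in A442M, and 90.5 and 92.2 in G444E. Only the 2 untagged WT libraries lacked it, and it also led the regions of A442M and of G444E that WT lacked. The second, 242 kb from the forkhead gene FOXQ1 and inside LINC01622, was likewise called in the same 10 libraries, with percentiles from 77.1 to 99.1. A region 322 kb from TFPI, the tissue factor pathway inhibitor, and one 310 kb from LOC105377864 were called in these 10 libraries as well. All 10 libraries outside untagged WT, and no other, called 122 desert regions (2.60%), against 3.52% of other regions.

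In the opposite direction, the top region of both WT libraries without a WT-FLAG call lies on chromosome 1 from 125179792 to 125180575. Its percentiles were 94.8 and 98.7 in untagged A442M and 98.8 and 99.7 in untagged WT, and no other library called it. It belongs to the interval across the centromere between H3-7 and LINC02798, which the RefSeq table classes as protein-coding, and 24 desert regions lie there. Untagged A442M libraries called 19 and 21 of these and untagged WT libraries 20 and 23, while the other 8 libraries called none of them. The second is 485 kb from GATA3, on chromosome 10 from 8559775 to 8560424. It had percentiles of 32.2 in 1 G444E-FLAG library, 85.4 and 87.2 in A442M, 55.6 and 79.9 in G444E, and 96.8 and 98.8 in WT, and was not called in A442M-FLAG or WT-FLAG.

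The A442M pair gave 2 regions each way. Called in A442M-FLAG and not A442M was one 303 kb from C16orf95, between it and FOXL1, in the 6 FLAG libraries alone, with percentiles of 86.8 and 86.6 in A442M-FLAG, 44.7 and 33.9 in G444E-FLAG, and 47.4 and 44.8 in WT-FLAG. The other, 323 kb from JARID2, a component of Polycomb repressive complex 2, was called in both A442M-FLAG libraries, 1 G444E-FLAG and 1 WT-FLAG library. Called in A442M and not A442M-FLAG were a region 257 kb from LOC105377015, beside RBMS3, and one 293 kb from METTL4. These regions had percentiles of 96.0 and 95.1, and 95.6 and 94.8, in the untagged A442M libraries.

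The G444E pair had few one-sided regions. G444E-FLAG and not G444E was led by a region 215 kb from LACC1, called in all FLAG and both untagged A442M libraries, and one 210 kb from MYC, inside the lncRNA gene PVT1. The MYC region had percentiles of 94.7 and 89.8 in A442M-FLAG, 69.0 and 63.4 in G444E-FLAG, 85.2 and 74.3 in WT-FLAG and 37.9 in 1 A442M library, and was called in no other. The reverse was led by a region 278 kb from the potassium channel gene KCNH8, called in the 10 libraries outside G444E-FLAG, and one 441.7 kb from SLIT2, an axon guidance ligand.

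For the remaining pairs the strongest regions were as follows. Called in WT and not A442M were one 368 kb from DPPA4 and one 347 kb from SPRY2, each in the 2 untagged WT libraries alone, with percentiles of 89.7 and 88.3, and 90.4 and 87.2. Called in WT and not G444E were 2 regions of the centromere-spanning interval on chromosome 1. A442M-FLAG and not WT-FLAG was led by regions 601 kb from CDH2, the N-cadherin gene, and 443 kb from KIF20B. WT-FLAG and not A442M-FLAG was led by a region 352 kb from RUNX1, a runt-domain transcription factor, and one 849 kb from SNX16, each called in all 10 libraries outside A442M-FLAG. G444E-FLAG and not WT-FLAG was led by regions near OTOL1 (417 kb) and KIF2B (262 kb). WT-FLAG and not G444E-FLAG was led by one 365 kb from TMEFF2 and by the KCNH8 region.

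Desert regions were unevenly spread over the genome. Sequence over 200 kb from a gene end, between 2 protein-coding genes, amounted to 605 Mb in 794 intervals, centromeres and assembly gaps included. It held 7.73 regions per Mb, against 25.9 per Mb inside gene spans and 23.2 per Mb between genes within 200 kb. At least 1 desert region lay in 506 intervals, and 155 intervals with 10 or more held 3533 of the 4701. Among chromosomes with 50 or more desert regions, density went from 3.79 per Mb (chromosome 21) to 14.3 per Mb (chromosome 15). On 21 of 22 chromosomes both untagged WT and untagged A442M had a higher desert share than the other 4 groups, chromosome 21 being the exception. The same 2 groups had the highest share over all chromosomes, so this count repeats that difference and is not separate support. Chromosomes are not replicates, and some held few desert regions, such as chromosome 19 with 3. Desert regions lay a median of 364 kb from a gene end, and their median width was 509 bp, against 534 bp for other regions.

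Non-coding genes were common beneath them. Of the desert regions, 1741 (37.0%) overlapped an annotated non-coding gene, mostly lncRNA genes (1648), against 30.2% of the other regions outside protein-coding genes. The 37 desert regions beside immunoglobulin or T cell receptor segments count as desert because RefSeq does not class these segments as protein-coding genes.

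The interval with the most desert regions lies between MYC, the growth-promoting transcription factor, and GSDMC, a gasdermin, on chromosome 8 from 127742951 to 129705435. Of its 84 regions, 25 were called in all 12 libraries. A442M-FLAG libraries called 65 and 58 of them, G444E-FLAG 60 and 49, WT-FLAG 64 and 54, A442M 53 and 54, G444E 51 and 40, and WT 44 and 43. WT-FLAG averaged 59 and WT 43.5 regions here, with no overlap, while WT-FLAG libraries called 1.58-fold as many regions outside deserts as WT libraries. The interval between ZEB2, a repressor of epithelial genes, and ACVR2A, an activin receptor, was second with 79 regions over 3.32 Mb of chromosome 2. A442M-FLAG libraries called 57 and 53 of these, WT-FLAG 49 and 47, A442M 60 and 54, WT 45 and 42, and the 4 G444E-FLAG and G444E libraries 38 to 40.

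Next came the interval from SLC35B3 to TFAP2A on chromosome 6, with 70 regions. A442M-FLAG libraries called 60 and 58, WT-FLAG 47 and 52, A442M 43 and 49, and WT 35 and 31. The interval from RASGRP1, a Ras exchange factor, to LOC124903470 on chromosome 15 was the densest of the 8 with the most regions, at 62 regions or 101 per Mb. The others were IGFBP3 to TNS3 (57 regions), METTL15 to KCNA4 (50), KLF4 to ACTL7B (49) and CITED2 to LOC124901415 (47). KLF4 is a Krüppel-like factor and CITED2 a co-regulator that binds the CBP and p300 coactivators. Together the 8 intervals held 498 desert regions, 10.6% of all. In METTL15 to KCNA4, WT-FLAG libraries called 38 and 36 regions and WT libraries 19 and 19.

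**Figure D5:**
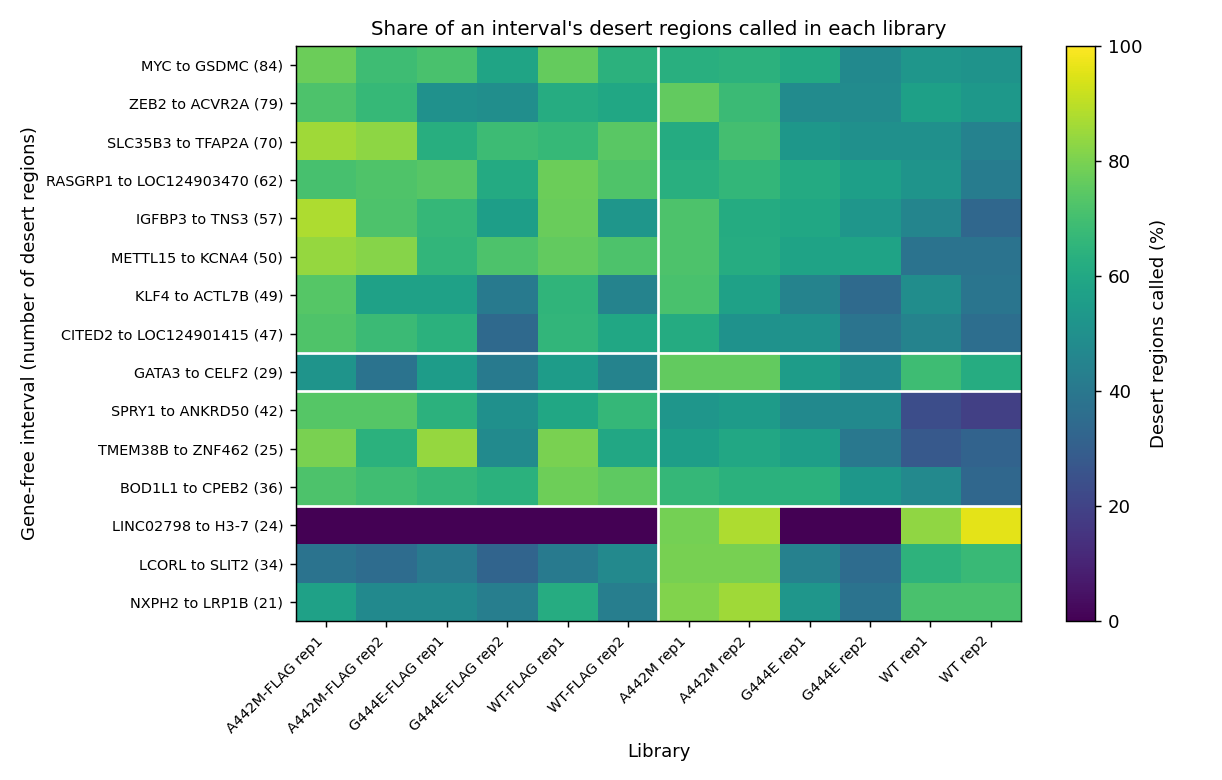
Percentage of an interval's desert regions called in each library (colour), for the 8 intervals with the most desert regions, the interval beside GATA3, and the 3 intervals most in favour of WT-FLAG and the 3 most in favour of WT (blocks from top to bottom, number of regions in brackets). LINC02798 to H3-7 has calls in the 4 untagged A442M and WT libraries and in none of the other 8.

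Single intervals leaned both ways. The counts that follow also move with the length of the lists: besides the ratios between genotypes given above, WT-FLAG called 1.58-fold as many other regions as WT, A442M-FLAG 1.23-fold as many as A442M, and G444E-FLAG 1.20-fold as many as G444E. Among the 155 with 10 or more desert regions, WT-FLAG libraries called more than WT libraries on average in 104 and fewer in 44. A442M-FLAG called more than A442M in 71 and fewer in 75, and G444E-FLAG more than G444E in 109 and fewer in 25. A442M was above WT in 142 and below it in 9, and G444E above WT in 57 and below it in 85. In the tagged state A442M-FLAG was above WT-FLAG in 103 and below it in 42, and G444E-FLAG above in 17 and below in 129. The intervals of 20 or more regions (69) with the widest gaps were picked after their values were seen. SPRY1 to ANKRD50 on chromosome 4 had 25 and 28 of 42 regions called in WT-FLAG and 10 and 8 in WT. Apart from the centromere-spanning interval, LCORL to SLIT2, also on chromosome 4, leaned farthest the other way, with 14 and 16 of 34 regions in WT-FLAG and 22 and 23 in WT. Untagged A442M called 27 in each library there, and A442M-FLAG 13 and 12.

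The desert downstream of GATA3 itself, between GATA3 and CELF2, an RNA-binding protein gene, held 29 regions, of which 6 were called in all 12 libraries. The 3 closest of these 6 were centred 209 kb, 291 kb and 293 kb past the gene. A442M-FLAG libraries called 15 and 11 of the 29, G444E-FLAG 16 and 12, WT-FLAG 16 and 13, A442M 22 and 22, G444E 16 and 14, and WT 20 and 18. Both libraries of untagged A442M and of untagged WT were above all 8 others.

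Genes of 5 lists tended to border deserts more than genes at large, and some lists were chosen for that trait, so this is a description. A gene was counted when it flanked an interval with sequence over 200 kb from both ends. Where it flanked 2 such intervals, their desert regions were added. Of all 18969 autosomal protein-coding genes, 1396 (7.36%) did so, 4.93% flanked an interval with a desert region, and 1.62% had 10 or more desert regions beside them. Of 68 developmental transcription factors, 48 flanked a desert, 35 flanked one with a desert region and 12 (17.6%) had 10 or more beside them. The highest numbers were beside ZEB2 (79), TFAP2A (70), SOX9 (58), TRPS1 (48), a GATA-type repressor, and GATA3 (29). Of 40 genes known from breast cancer risk loci or cancer-linked deserts, 9 (22.5%) had 10 or more beside them. MYC (84), KLF4 (49) and KCNJ2 (46), a potassium channel gene that shares its desert with SOX9, led this list beside SOX9 and TRPS1, with KLF12 at 16.

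Of 63 neural adhesion and synapse genes, 55 flanked a desert and 13 (20.6%) had 10 or more desert regions beside them. The cadherin-family gene PCDH7 (33) and the teneurin gene TENM3 (32) led this list. CSMD3 (27), FLRT2 (22), LRP1B (21) and PCDH18 (18) followed. Of 52 genes of secreted signals and receptors, 27 flanked a desert and 9 (17.3%) had 10 or more beside them. These included the ephrin receptor EPHA4 (49), the ephrin EFNA5 (44), SLIT2 (34), KITLG (26), the ligand of KIT, CXCL12 (25) and BMP4 (23). Of 40 matrix and mesenchymal genes, 12 flanked a desert and 4 had 10 or more beside them, CDH2 (43), HAS2 (35), a hyaluronan synthase, TNC (24) and CDH11 (22). COL12A1 and FN1 had 7 and 5.

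Given a gene beside a desert at all, the lists were closer to the background: 22.0% of all such genes had 10 or more desert regions, against 25.0% of the transcription factors and 23.6% of the neural genes. The cancer desert genes had 37.5%, the secreted signals and the matrix genes 33.3% each. Median numbers beside a desert were 6.5 for cancer desert genes, 4 for neural, secreted and matrix genes, 2 for transcription factors and 2 for all genes.

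At its edges the rule split similar regions. Just inside the limit were a region 200017 bp from SLC4A3, called in both A442M-FLAG, 1 G444E-FLAG and both WT-FLAG libraries, and one 200136 bp from COX18, called in 11 libraries. Just outside were a region 199982 bp from RBMS3, called in all 12 libraries with a median percentile of 89.7, and one 199976 bp from HEY2, called in 9. The farthest desert region, 4505 kb from OR11H1 on chromosome 22, was called in both untagged A442M libraries and 1 WT library at percentiles of 21.0, 52.6 and 36.3. The next farthest were 2 regions of the centromere-spanning interval on chromosome 1, 3719 kb and 3717 kb from LINC02798, each called in the 2 untagged A442M and 2 untagged WT libraries alone.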

How the data were processed

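The submitters' processing notes name MACS2 2.1.4, FastQC and build hg38, and no source used here gives the aligner, control, read depth or filters. A deposited list has 1 library's peaks with a score per peak, the authors' own value on an unnamed scale, at least 5.00 in every list and used here only to rank or filter within a list. List lengths were 25248 to 51694 peaks, and without reads no counting error could be given. Deserts were measured from 18969 autosomal protein-coding gene spans in a RefSeq table (GRCh38.p14); 153 entries that lie on scaffolds other than the chromosome itself were left out. Coordinates are 1-based.

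Groups were compared by exact permutation tests over libraries, two-sided, with tag labels exchanged within genotype and genotype labels within tag state, and by Fisher's exact test per region. The labels do not say whether replicates were separate cultures, so a p-value reflects the spread between libraries, possibly only technical. Libraries with the same number moved together in all 15 pairs of groups (r across regions of 0.160 to 0.330), so numbers were taken to pair libraries, from the data and not the labels. Replicate 1 also had the longer list in every group, and the part of list length in this correlation was not tested. Regions named are the 10 of all 12 libraries with the highest median percentile, 2 per side of 7 pairs, the 3 farthest and those at the limit; intervals named are the 8 with the most desert regions, and list genes up to 6 each, of which 1 is not reported here. The members, lists and rules were chosen with earlier results of these data known. Steps were tested on simulated data and run with Python 3.11.15, numpy 2.4.6, pandas 2.3.3 and scipy 1.17.1. Sequences of the regions themselves were not used here.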

Additional observations from a re-analysis of the deposited data

Results flagged for a closer look

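The number of desert regions called moved in opposite directions with the tag in different genotypes. A442M-FLAG libraries called 189 and 324 fewer than the same-number A442M libraries, a mean difference of -256.5. G444E-FLAG libraries called 344 and 117 more than G444E libraries (mean 230.5), and WT-FLAG libraries 211 and 181 more than WT libraries (mean 196). Over other autosomal regions the calls were higher with the tag in all 3 genotypes, 1.23-fold in A442M, 1.20-fold in G444E and 1.58-fold in WT, so the desert share was lower with the tag in each, and the opposite directions hold for numbers and not for shares. The tag effect on the number in A442M was thus -487 desert regions apart from that in G444E and -452.5 apart from that in WT. Both pairs of A442M moved down and both pairs of each other genotype moved up, which is what singled these values out; the difference itself was not tested.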

How the results depend on the processing

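The sign of each of the 5 desert share contrasts was kept under all alternatives run. The tag difference kept an unadjusted p under 0.05 except without untagged WT and untagged A442M. There it was -0.44 points (exact permutation test, p = 0.667), in a design of 2 against 2 informative libraries that cannot reach 0.05, so the lost call says nothing about stability. Under the replicate block its exact permutation p was 0.0312, and the paired fit changed no other call. Leaving out 1 library at a time, it ranged from -1.96 to -1.69 points.

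The number of desert regions in FLAG against untagged libraries (0.05 in log2) reversed to -0.11 at 500 kb, -0.26 with equal lists and -0.60 in deserts free of every annotated gene, and ranged from -0.0042 (without A442M-FLAG replicate 1) to 0.088 leaving out 1 library. Both mutants against WT (0.02) gave -0.081 at 500 kb, -0.0095 with regions of 1 library included, -0.085 with equal lists, -0.37 in deserts free of every gene, -0.036 without untagged WT and A442M, and -0.042 to 0.081 leaving out 1 library, below 0 without either A442M-FLAG library, either A442M library or WT-FLAG replicate 2. A442M against WT gave -0.016 with equal lists. The cause of these reversals was not tested.

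The percentile difference (0.62) reversed to -1.69 at 500 kb, -1.24 with scores of at least 10, -1.37 with equal lists, -0.20 with calls that cover 50% of a region and -7.10 in deserts free of every gene (117 regions). It was 0.55 in 3 or more libraries (exact permutation p = 0.115), 0.48 in 1 or more (p = 0.226), and 0.49 to 0.83 leaving out 1 library. It then lost its call without A442M-FLAG replicate 1, WT-FLAG replicates 1 and 2, or any of the 4 G444E-FLAG and G444E libraries.

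One-sided percentages moved over 1.5 times as follows. They are percentages of desert regions only. The share over all regions under each setting is not given, so they do not show how deserts stood beside regions at large. At 500 kb, G444E and not WT was 2.98% and G444E-FLAG and not WT-FLAG 0.142%. In 3 or more libraries, WT and not A442M was 0.26% and A442M-FLAG and not WT-FLAG 3.43%. With calls covering 50%, WT-FLAG and not A442M-FLAG was 3.27%. With equal lists, WT and not WT-FLAG was 18.2%, G444E-FLAG and not G444E 1.27%, the reverse 1.84%, A442M and not WT 6.40%, the reverse 6.16%, A442M-FLAG and not WT-FLAG 3.76%, the reverse 3.70%, G444E-FLAG and not WT-FLAG 0.77%, and the reverse 1.21%. In deserts free of every gene, WT-FLAG and not WT was 4.27%, the reverse 28.2%, A442M-FLAG and not A442M 2.56%, the reverse 17.9%, G444E-FLAG and not G444E 0.855%, the reverse 0%, WT and not A442M 10.3%, G444E and not WT 1.71%, the reverse 29.9%, A442M-FLAG and not WT-FLAG 4.27%, and G444E-FLAG and not WT-FLAG 2.56%. Leaving out 1 library of a pair, which by construction asks for fewer calls, gave ranges of 11.7% to 18.9% (WT-FLAG and not WT), 7.42% to 13.5% (A442M-FLAG and not A442M), 10.3% to 16.8% (its reverse), 1.94% to 9.57% (G444E-FLAG and not G444E), 0.818% to 4.10% (its reverse), 9.75% to 16.4% (A442M and not WT), 1.18% to 4.34% (its reverse), 4.74% to 9.48% (G444E and not WT), 5.72% to 11.4% (A442M-FLAG and not WT-FLAG), 2.07% to 6.13% (its reverse), 0.384% to 3.98% (G444E-FLAG and not WT-FLAG) and 2.43% to 8.59% (its reverse). Fisher's test called 0 desert regions under every alternative run. Since no region could pass for the tag in the main setting, this does not show stability. Depth is unknown, so a missing call may be a weaker peak under the authors' threshold.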
